A study of Homo sapiens with 4 samples.

Results

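Cholesterol and fatty acid synthesis was described by 29 genes in HaCaT, an immortalised human keratinocyte line. The genes were chosen by name, for their enzymatic or regulatory role, but with earlier results of these data known. All except NSDHL, 28 genes, have a row among the 27356 genes of the tables. Of the 29, ACAT2, HMGCS1, MVK, PMVK, MVD, IDI1, FDPS and FDFT1 carry acetyl-CoA to squalene. GGPS1, listed with them, makes geranylgeranyl diphosphate instead. SQLE, LSS, CYP51A1, TM7SF2, MSMO1, NSDHL, HSD17B7, EBP, SC5D and DHCR7 carry squalene to cholesterol. SREBF1, SREBF2, SCAP and INSIG1 sense or regulate sterol, and STARD4, listed with them, carries it. ACLY, FASN, ACACA, SCD and ELOVL6 make, desaturate and lengthen fatty acids.

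Polyadenylated RNA was sequenced from 2 libraries of cells given phosphate-buffered saline (PBS) and 2 of cells given M5, for 72 h from 50% plating density. M5 is a mix of 5 cytokines, IL-1α, IL-17, IL-22, TNF-α and oncostatin M, each at 10 μg/L. The titles, which were followed, put 2 libraries in M5, although the treatment field of the same 2 reads DAC at 25 μM. All libraries come from 1 cell line, and nothing in the labels says that replicates were separate cultures, so the spread behind each p-value may be only technical.

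Cells make cholesterol from acetyl-CoA through mevalonate and squalene, and they tune that synthesis to their sterol content. When membrane sterol is low, SCAP escorts the SREBP transcription factors, encoded by SREBF1 and SREBF2, to the Golgi for cleavage, and the released factors switch on genes of synthesis. When sterol is high, INSIG1 holds SCAP back in the endoplasmic reticulum. SREBP2 is known chiefly for sterol genes and SREBP1 for fatty acid genes, and both bind together with the CCAAT-binding factor NF-Y. In epidermis, cholesterol, free fatty acids and ceramides form the lipid barrier of the cornified layer.

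The promoters of 5 of these genes are shown because they span the responses below: MSMO1, STARD4 and HMGCS1 were higher in M5, and INSIG1 and SCD were lower. Each sequence runs 5′ to 3′ on the gene's strand, from 250 bases before the RefSeq start to the base before the gene's first base in GENCODE 29, on GRCh38.p14. Capitals mark CCAAT on either strand, which reads ATTGG on the other.
MSMO1: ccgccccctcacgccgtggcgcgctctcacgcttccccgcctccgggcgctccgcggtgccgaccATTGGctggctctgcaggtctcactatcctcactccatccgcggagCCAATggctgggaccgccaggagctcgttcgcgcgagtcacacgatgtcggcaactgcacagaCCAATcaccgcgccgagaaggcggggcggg
STARD4: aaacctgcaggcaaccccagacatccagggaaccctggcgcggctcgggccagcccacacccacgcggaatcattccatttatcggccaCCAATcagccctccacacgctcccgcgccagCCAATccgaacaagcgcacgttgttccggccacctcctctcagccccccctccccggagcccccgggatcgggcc
HMGCS1: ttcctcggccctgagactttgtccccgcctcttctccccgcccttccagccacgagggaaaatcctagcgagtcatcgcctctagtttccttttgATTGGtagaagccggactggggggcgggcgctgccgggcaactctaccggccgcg
INSIG1: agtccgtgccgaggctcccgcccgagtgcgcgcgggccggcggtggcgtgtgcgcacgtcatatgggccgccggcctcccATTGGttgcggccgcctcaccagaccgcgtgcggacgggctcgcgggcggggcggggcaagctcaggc
SCD: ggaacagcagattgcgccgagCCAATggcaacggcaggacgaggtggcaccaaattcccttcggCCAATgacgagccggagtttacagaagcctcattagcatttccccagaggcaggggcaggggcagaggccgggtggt
They lie at chr4:165327419-165327622 (plus strand), chr5:111512591-111512785 (minus), chr5:43313513-43313662 (minus), chr7:155297628-155297775 (plus) and chr10:100346983-100347123 (plus). Of the 29 genes 25 have an entry in the RefSeq promoter table. In the 250 bases before the start, searched on both strands, CCAAT occurred in 17 of the 25, against 32.0% of all 35116 promoters and 35.7% of the 8150 promoters of tested genes that matched by symbol. GGGCGG, a binding motif of SP1, occurred in 23 of 25, against 42.6% of all promoters and 69.3% of those of tested genes. The exact string TCACNCCAC, a form of the sterol element, occurred in 1, SREBF2, against 0.883% of all promoters. Sterol elements that depart from this string were not searched. Overlapping matches of different motifs were each counted. CCAAT was present in 6 of 6 promoters of genes called higher in M5, in 5 of 8 of genes called lower and in 5 of 8 of tested genes that were not called. A match describes letters in this window and shows no binding.

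Levels are given as FPKM rescaled by TMM: the read count relative to gene length and to the TMM-adjusted library size, which allows comparison between genes and between libraries. Genes were tested with edgeR's quasi-likelihood test on counts when the mean deposited FPKM reached 1, which 25 of the 28 did, and called at a Benjamini-Hochberg adjusted p under 0.05 over all 10809 tested genes. FDFT1, CYP51A1 and ACACA fell under that limit.

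Library totals ran from 15858644 to 19749612 counts. The tested synthesis genes had between 120 and 22271 counts in a library. Summed scaled FPKM of 7 keratinocyte markers ran from 3014 to 3031 in PBS and from 3839 to 4179 in M5. KRT14 and SFN were highest in M5. KRT5 stood at 728 and 722 in PBS against 388 and 357 in M5, whereas KRT17 stood at 132 and 140 against 622 and 604. Of 4 fibroblast markers with a row the sum was 0.551 to 0.560 in PBS and 0.427 to 0.728 in M5, of 4 melanocyte markers 0.437 to 0.491 and 0.575 to 0.796, of 3 endothelial markers 0.269 to 0.270 and 0.465 to 0.662, and of 2 adipocyte markers at most 0.0637 in any library. Of 2 leukocyte markers the sum was 1.49 to 2.25 in PBS and 4.97 to 5.44 in M5, nearly all of it CD14. The markers PTPRC, LYZ, CD68, COL1A2, COL3A1, TYR, ADIPOQ and LEP have no row. A missing row gives no level and does not show that a gene was silent. In bulk RNA, fewer cells of a kind and less RNA per cell cannot be told apart.

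**Figure D1:**
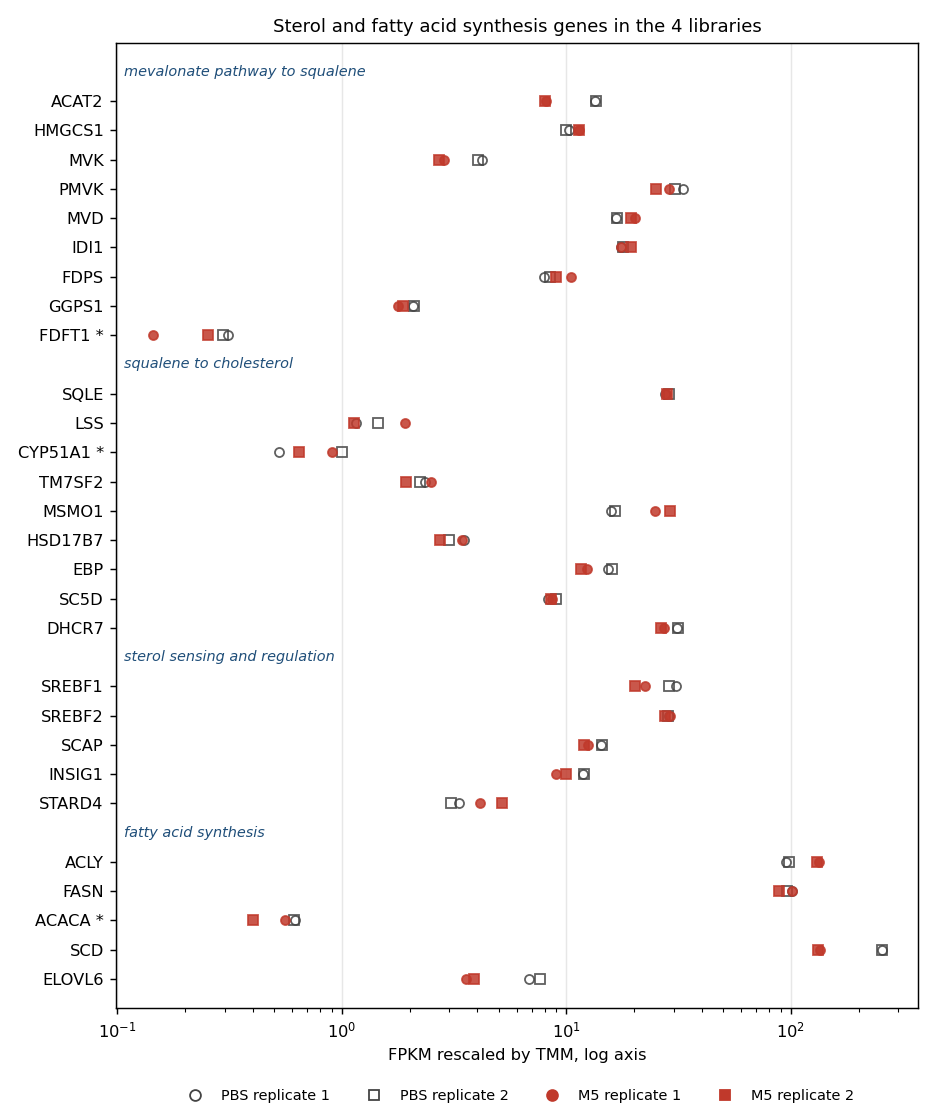
Level of each synthesis gene in the 4 libraries, as FPKM rescaled by TMM on a log axis, with open symbols for PBS and filled symbols for M5, and circles and squares for replicates 1 and 2. Genes marked * were under the test's FPKM limit. SCD is the highest gene, at 254 in both PBS libraries and 134 and 132 in M5, and the M5 symbols of ACAT2, MVK, SREBF1, SCD and ELOVL6 stand to the left of the PBS symbols.

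With M5 the pathway did not move as a block. MSMO1, STARD4 and ACLY rose, as did HMGCS1, MVD and FDPS by small amounts, while SCD and ELOVL6 fell most and ACAT2, MVK, SREBF1, EBP, INSIG1, SCAP and DHCR7 fell less.
Of the 25 tested genes 6 were called higher and 9 lower, 15 in all (60%), against 55.9% of all tested genes called in either direction, 28.8% higher and 27.1% lower. The share called was near the background. None of the 25 was called with a change of at least 2-fold, which 9.61% of all tested genes were. The scaled FPKM of the groups did not overlap for 17 of the 25 (68%), against 77.2% of all tested genes. Their median log2 fold change was -0.05, beside -0.01 for all tested genes, and the median of the absolute values was 0.24, beside 0.29.

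How many rose and how many fell changed when libraries were scaled otherwise. Scaled to their plain totals, they gave 3 synthesis genes called higher and 14 lower, against 20.4% and 41.3% of all tested genes (61.7% together). TPM scaling also gave 3 and 14, against 18.8% and 43.8% (62.6% together). The median of all tested genes moved from -0.01 to -0.16 and -0.19 under these scalings, and changes below are relative to the TMM scale. The calls of 12 genes held under both: MSMO1, STARD4 and ACLY higher, and ACAT2, MVK, EBP, DHCR7, SREBF1, SCAP, INSIG1, SCD and ELOVL6 lower. HMGCS1, MVD and FDPS were then no longer called, and PMVK, SQLE, SC5D, SREBF2 and FASN were called lower.

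**Figure D2:**
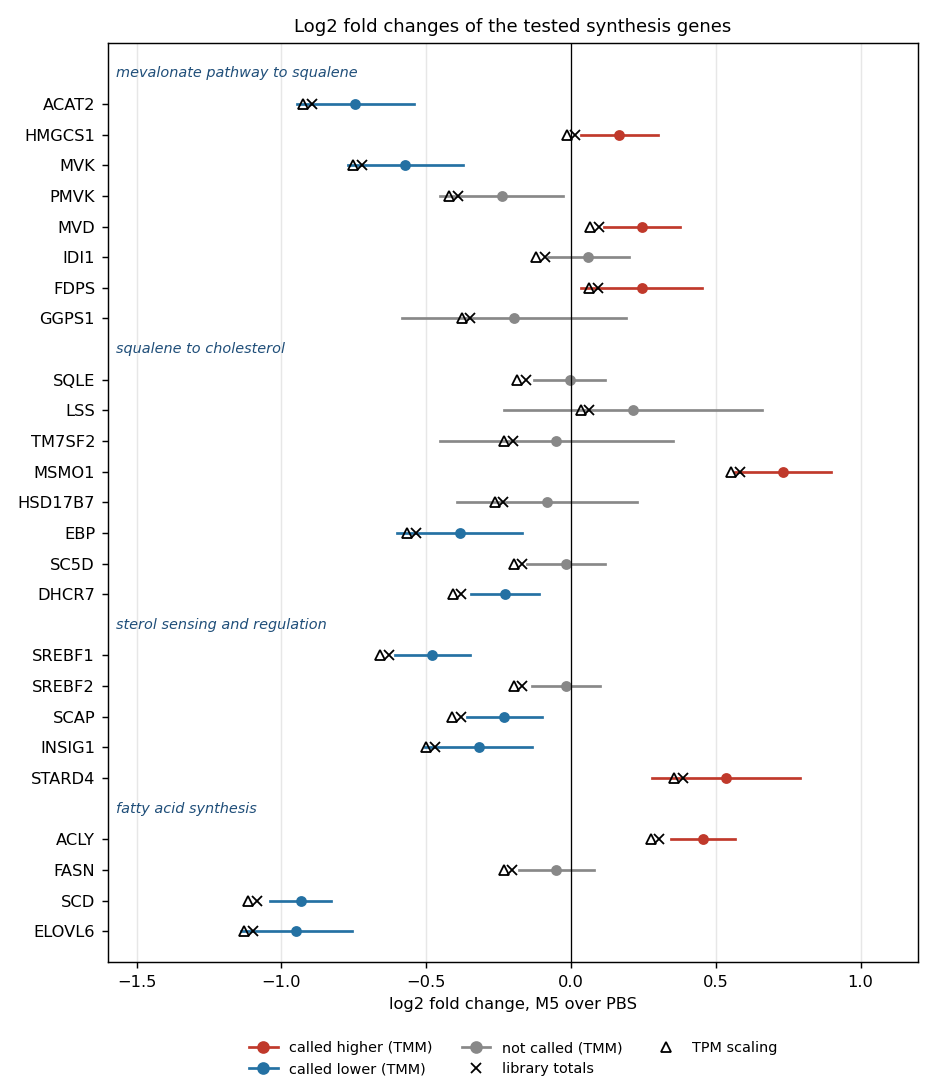
Log2 fold change of the 25 tested synthesis genes, M5 over PBS. Dots and lines are the TMM estimate and its 95% interval, red for genes called higher, blue for lower and grey for not called; crosses and triangles are the estimates with library totals and with TPM scaling. The interval of SCD runs from -1.04 to -0.83 and that of MSMO1 from 0.57 to 0.90, and every cross and triangle stands to the left of its dot.

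Among the enzymes from acetyl-CoA to squalene, the first step and the mevalonate kinase fell, while 3 other steps were slightly higher. Of 8 tested genes, GGPS1 included, 3 rose and 2 fell, against 28.8% and 27.1% of all tested genes. The other 3 did not pass the test. ACAT2, the cytosolic thiolase that joins 2 acetyl-CoA (ENSG00000120437, chromosome 6, 159760328 to 159779055, GRCh38), stood at 13.4 and 13.5 scaled FPKM in PBS and 8.08 and 7.99 in M5. Both M5 libraries lay well under both PBS libraries, with replicates almost equal, 1.68-fold lower (log2 fold change -0.74, SE 0.10, edgeR adjusted p = 2.45e-06). In GENCODE 29, 52.3% of the exonic bases of ACAT2 are shared with other genes, the largest parts with gene models on the opposite strand: SOD2-OT1 (33.9%), a SOD2 model (26.5%) and TCP1 (9.23%). The library kit does not mark strand, so reads there cannot be assigned by strand. SOD2, the mitochondrial superoxide dismutase, rose in the same libraries from 2466 and 2400 to 43556 and 47119 counts, whereas TCP1 had a log2 fold change of -0.03 (edgeR adjusted p = 0.675). The part of this overlap in the ACAT2 result was not tested.

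HMGCS1, HMG-CoA synthase (chromosome 5, 43289395 to 43313512), whose promoter is printed above, had 10.3 and 10.0 scaled FPKM in PBS and 11.4 in both M5 libraries. The groups did not overlap, but the difference was small, 1.12-fold (log2 fold change 0.17, SE 0.06, edgeR adjusted p = 0.0325). Its call was lost without PBS replicate 1 (0.19, edgeR adjusted p = 0.119) or PBS replicate 2 (0.15, edgeR adjusted p = 0.221) and with DESeq2 (adjusted p = 0.107), and the sign turned with TPM scaling, at -0.0148. An antisense gene model shares 15.0% of its exonic bases in GENCODE 29.

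MVK, mevalonate kinase (chromosome 12, 109573255 to 109598117), had 4.20 and 4.04 scaled FPKM in PBS and 2.84 and 2.70 in M5. It was 1.49-fold lower (log2 fold change -0.57, SE 0.09, edgeR adjusted p = 4.17e-05), with no overlap between the groups. MMAB, the opposite-strand neighbour that shares 4.72% of the exonic bases of MVK and acts in cobalamin metabolism, was chosen after its values were seen. It had 511 and 484 counts in PBS and 308 and 332 in M5, and fell by 0.77 on the log2 scale (SE 0.11, edgeR adjusted p = 5.29e-06).

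PMVK, the next kinase, had 32.9 and 30.4 scaled FPKM in PBS and 28.6 and 25.1 in M5. Its groups did not overlap, yet it stood just outside the threshold at -0.24 (95% interval -0.45 to -0.03, edgeR adjusted p = 0.0519), and it was called lower with the replicate number as a block (edgeR adjusted p = 0.0328) and without M5 replicate 1 (-0.33, edgeR adjusted p = 0.0171). MVD, which decarboxylates mevalonate diphosphate to the isoprene unit (chromosome 16, 88651935 to 88663161), went the other way, from 16.6 and 16.8 to 20.3 and 19.3 scaled FPKM. That is 1.19-fold higher (log2 fold change 0.25, SE 0.06, edgeR adjusted p = 0.00249).

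IDI1, the isomerase of isoprene units, overlapped between groups, at 17.6 and 17.8 in PBS and 17.5 and 19.3 in M5 (log2 fold change 0.06, 95% interval -0.08 to 0.20). FDPS, farnesyl diphosphate synthase, had 7.95 and 8.47 in PBS and 10.5 and 8.97 in M5. The M5 libraries differed more from each other than M5 replicate 2 did from PBS, and the rise of 0.24 (SE 0.10, edgeR adjusted p = 0.044) was no longer called without M5 replicate 1 (0.13, edgeR adjusted p = 0.33), without PBS replicate 1 (0.20, edgeR adjusted p = 0.21) or without PBS replicate 2 (0.29, edgeR adjusted p = 0.0598). The antisense gene RUSC1-AS1 shares 18.6% of the exonic bases of FDPS and had 115 to 128 counts in the 4 libraries. Among 10 rows of pseudogenes named after FDPS, CYP51A1, IDI1 or SCD, none had more than 9 counts in a library.

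GGPS1, which makes geranylgeranyl diphosphate for protein prenylation, was low, between 1.77 and 2.09 in the 4 libraries, with a log2 fold change of -0.20 whose interval of -0.58 to 0.19 allows change in either direction. Other gene models share 41.0% of its exonic bases, most of them TBCE on the same strand. FDFT1, squalene synthase and the first enzyme committed to sterol, had only 26 and 25 counts in PBS and 13 and 24 in M5. Without the FPKM filter, when 22.4% of all 27356 genes were called and 6.82% with a change of at least 2-fold, its log2 fold change was -0.57 (SE 0.39, edgeR adjusted p = 0.42). That depth is under the 120 counts of the least covered tested gene of the pathway, and the reason was not tested.

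From squalene to cholesterol, MSMO1 rose while EBP and DHCR7, which act at later steps, fell. Of 8 tested genes 1 rose and 2 fell, against 28.8% and 27.1% of all tested genes, and 5 did not pass the test. MSMO1, the methylsterol oxidase that acts after CYP51A1 and starts removal of the methyl groups that CYP51A1 leaves (ENSG00000052802, chromosome 4, 165327623 to 165343160), had 15.9 and 16.4 scaled FPKM in PBS and 24.7 and 28.8 in M5. It was the gene of the pathway with the largest rise among those tested, 1.66-fold (log2 fold change 0.73, SE 0.08, edgeR adjusted p = 2.37e-07), and its printed promoter holds 3 CCAAT runs, with another among the bases not printed. Set against ACAT2 in the same library, its scaled FPKM was 1.18 and 1.21 times as high in PBS and 3.06 and 3.61 times in M5.

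SQLE, squalene epoxidase and a rate-limiting oxygenase of sterol synthesis, did not separate the groups. It had 27.6 and 28.6 scaled FPKM in PBS and 27.9 and 28.1 in M5, and the 95% interval of its log2 fold change was -0.13 to 0.12. LSS, which folds the epoxide into lanosterol, had 1.16 and 1.45 in PBS and 1.91 and 1.13 in M5, so the M5 libraries enclosed the PBS libraries. Its log2 fold change of 0.22 was not called (edgeR adjusted p = 0.408), but without M5 replicate 2 it became 0.55 (edgeR adjusted p = 0.0159).

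CYP51A1, the lanosterol demethylase, had 36 and 70 counts in PBS and 67 and 50 in M5 and was under the filter, with a log2 fold change of 0.04 (SE 0.33) without one. Other gene models share 83.2% of its exonic bases in GENCODE 29, 79.4% with a single model on the same strand, AC000120.2; the part of this overlap in its low count was not tested. TM7SF2, a sterol reductase, ranged from 1.93 to 2.49 over the 4 libraries and HSD17B7, a sterol ketone reductase, from 2.72 to 3.50. The M5 and PBS values of both overlapped, with intervals of -0.45 to 0.35 and -0.39 to 0.23.

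EBP, the sterol isomerase that also binds emopamil (chromosome X, 48521158 to 48528716), had 15.4 and 16 scaled FPKM in PBS and 12.4 and 11.6 in M5. It was 1.31-fold lower (log2 fold change -0.38, SE 0.10, edgeR adjusted p = 0.00384). SC5D, the desaturase that follows, ranged from 8.28 to 9.03 with overlapping groups (95% interval -0.15 to 0.12). DHCR7, the reductase of a last step to cholesterol (chromosome 11, 71428193 to 71452868), had 31.1 and 31.3 in PBS and 27.1 and 26.2 in M5. It was 1.17-fold lower (log2 fold change -0.23, SE 0.06, edgeR adjusted p = 0.00186), a small change with tight replicates.

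Of the regulators, the sterol-sensing partners and SREBF1 fell while SREBF2 did not pass the test. Of the 5 genes of this list, all tested, 3 fell and 1, the carrier STARD4, rose, against 27.1% and 28.8% of all tested genes. SREBF1 (ENSG00000072310, chromosome 17, 17810399 to 17837002) had 30.7 and 28.5 scaled FPKM in PBS and 22.3 and 20.3 in M5, 1.39-fold lower (log2 fold change -0.48, SE 0.06, edgeR adjusted p = 2.55e-06). SREBF2 had 28.6 and 28.4 in PBS and 29.1 and 27.4 in M5. Its M5 values lay on either side of its PBS values, and its 95% interval was -0.13 to 0.10. In PBS the paired transcripts were thus near equal per length, with SREBF1 at 1.07 and 1.00 times SREBF2, and in M5 the ratio was 0.767 and 0.740. RAI1, which shares 6.92% of the exonic bases of SREBF1, had a log2 fold change of -0.10 (edgeR adjusted p = 0.232). The counts do not tell the SREBF1 transcript forms apart, and SREBP activity depends on cleavage that RNA does not show.

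SCAP, the sterol-sensing escort (chromosome 3, 47413694 to 47477126), had 14.2 and 14.4 scaled FPKM in PBS and 12.4 and 12 in M5, 1.17-fold lower (log2 fold change -0.23, SE 0.06, edgeR adjusted p = 0.00399). INSIG1, the retention protein and itself an SREBP target (chromosome 7, 155297776 to 155310235), had 11.8 and 11.9 in PBS and 9.03 and 9.99 in M5. It was lower (log2 fold change -0.32, SE 0.09, edgeR adjusted p = 0.00473), and both M5 values lay under both PBS values. STARD4, which carries cholesterol through the cytosol (chromosome 5, 111496033 to 111512590), was the gene of this list that rose. It had 3.32 and 3.06 in PBS and 4.11 and 5.14 in M5, 1.45-fold higher (log2 fold change 0.54, SE 0.12, edgeR adjusted p = 0.00105). The M5 libraries differed from each other more than the PBS libraries did, and the call was lost with limma on log2(FPKM + 1) (adjusted p = 0.0565).

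The largest changes, and the highest levels, were among the fatty acid enzymes. Of 4 tested genes ACLY rose, SCD and ELOVL6 fell, and FASN did not pass the test. Among all tested genes 28.8% were called higher and 27.1% lower. SCD, the desaturase that makes oleate and palmitoleate from saturated fatty acids (ENSG00000099194, chromosome 10, 100347124 to 100364834), had 254 scaled FPKM in each PBS library and 134 and 132 in M5. It was 1.91-fold lower (log2 fold change -0.93, SE 0.05, edgeR adjusted p = 9.84e-12), with replicates far closer to each other than the groups were. ELOVL6, which lengthens palmitate to stearate, the substrate of SCD (ENSG00000170522, chromosome 4, 110045846 to 110199199), had 6.80 and 7.59 in PBS and 3.57 and 3.88 in M5. It was 1.93-fold lower (log2 fold change -0.95, SE 0.09, edgeR adjusted p = 5.02e-08). Under library totals or TPM scaling both were called with a change of at least 2-fold, alone among the 25, against 9.7% and 9.87% of all tested genes.

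ACLY, which splits citrate to supply cytosolic acetyl-CoA to both pathways (ENSG00000131473, chromosome 17, 41866908 to 41930542), had 94.8 and 97.5 scaled FPKM in PBS and 134 and 130 in M5. It was 1.37-fold higher (log2 fold change 0.46, SE 0.05, edgeR adjusted p = 5.16e-07). FASN, the fatty acid synthase (chromosome 17, 82078333 to 82098332), had 101 and 95.7 in PBS and 101 and 88.4 in M5. Its groups overlapped, with a log2 fold change of -0.05 (95% interval -0.18 to 0.08), but without M5 replicate 1 it was called lower at -0.15 (edgeR adjusted p = 0.00436). ACACA, the carboxylase that commits acetyl-CoA to fatty acids, had 133 counts in each PBS library and 129 and 97 in M5, at most 0.617 scaled FPKM, and was under the filter (log2 fold change -0.33, SE 0.20, edgeR adjusted p = 0.344 without it).

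SCD stood far above ACLY and FASN in PBS and nearer to them in M5. In PBS SCD was 2.68 and 2.60 times as high as ACLY per length, and in M5 1.00 and 1.01 times. ACLY stood at 0.939 and 1.02 times FASN in PBS, so under it in 1 library and above it in the other, and at 1.32 and 1.47 times in M5. Summed over the 5 fatty acid genes, scaled FPKM was 458 and 455 in PBS and 374 and 354 in M5, of which SCD made up 55.6% and 55.8% in PBS and 35.9% and 37.2% in M5. The sum over the 9 enzymes from squalene to cholesterol with a row was 105.7 and 109.0 in PBS and 109.4 and 109.7 in M5. Both M5 sums lay above both PBS sums, but by less than the PBS libraries differed from each other. The sum over the 9 genes of the list up to squalene, GGPS1 included, was 105 and 103 in PBS and 101 and 96.8 in M5.

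**Figure D3:**
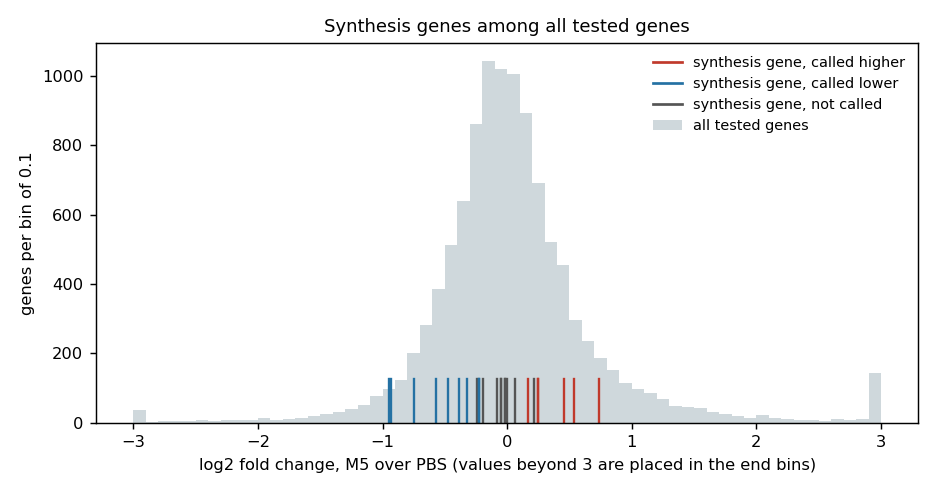
Histogram of log2 fold changes, M5 over PBS, of all 10809 tested genes in bins of 0.1 (values beyond 3 in either direction are in the end bins), with the 25 tested synthesis genes as vertical ticks, red for called higher, blue for called lower and grey for not called. The ticks run from -0.95 (ELOVL6) to 0.73 (MSMO1), inside the range of 1 in either direction that holds most genes.

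Further genes of cholesterol synthesis and SREBP control, a list of 14, had a median log2 fold change of -0.03 over 13 tested and a median absolute value of 0.14. Of the 13, 2 rose and 3 fell, against 28.8% and 27.1% of all tested genes. LBR, a nuclear envelope protein with the same sterol reductase activity as TM7SF2, had 36.7 and 38.3 scaled FPKM in PBS and 23.3 and 24.7 in M5, 1.56-fold lower (log2 fold change -0.64, SE 0.06, edgeR adjusted p = 2.17e-08). TMEM97, a sterol-regulated membrane protein, fell by 0.51 and ACAT1, the mitochondrial thiolase, by 0.27 (edgeR adjusted p = 0.00022 and 0.003), the latter not called without PBS replicate 2 (edgeR adjusted p = 0.0799). RNF145, a sterol-responsive ubiquitin ligase, was higher by 0.27 (edgeR adjusted p = 0.000926), a call lost with library totals (0.12) and TPM scaling (0.09).

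Among genes that take up, move and store sterol, most of those tested rose. Of 13 tested of 15, 9 rose and 3 fell, against 28.8% and 27.1% of all tested genes, with a median of 0.60. With library totals and with TPM scaling 8 rose, against 20.4% and 18.8%. GRAMD1B, which moves cholesterol from the plasma membrane to the endoplasmic reticulum, had 0.13 and 0.136 scaled FPKM in PBS and 4.40 and 4.37 in M5, from 32 and 34 counts to 1168 and 1213. It was 32.9-fold higher (log2 fold change 5.04, SE 0.13, edgeR adjusted p = 1.26e-16) and passed the filter only through its M5 level. NPC1, which exports cholesterol from lysosomes, rose from 11.5 and 10.7 to 30.0 and 29.1 (2.67-fold, edgeR adjusted p = 2.17e-13). SOAT1, which esterifies cholesterol for storage, rose from 9.43 and 8.88 to 17.7 and 17.9 (1.95-fold, edgeR adjusted p = 1.69e-10). CAV1, the coat protein of cholesterol-rich caveolae, fell from 335 and 340 to 80.7 and 85.1 (4.07-fold lower, edgeR adjusted p = 2.33e-16).

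Of 7 tested genes of the LXR and sterol efflux list of 13, 3 rose and 2 fell, against 28.8% and 27.1% of all tested genes, with a median of 0.21. ABCA1, the pump that hands cholesterol to apolipoproteins, had 10 and 26 counts in PBS and 1005 and 1034 in M5, or 0.0533 and 0.137 against 4.98 and 4.90 scaled FPKM. It was 51.5-fold higher (log2 fold change 5.69, SE 0.18, edgeR adjusted p = 4.71e-15), passing the filter only through M5, and its log2 value was 5.17 without PBS replicate 1 and 6.52 without PBS replicate 2. CYP27B1, which activates vitamin D and is no efflux gene, rose 8.62-fold (edgeR adjusted p = 1.00e-17). The LXR genes moved apart: NR1H2 was higher by 0.46 and NR1H3 fell by 0.65 (edgeR adjusted p = 1.88e-05 and 0.00308).

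**Figure D4:**
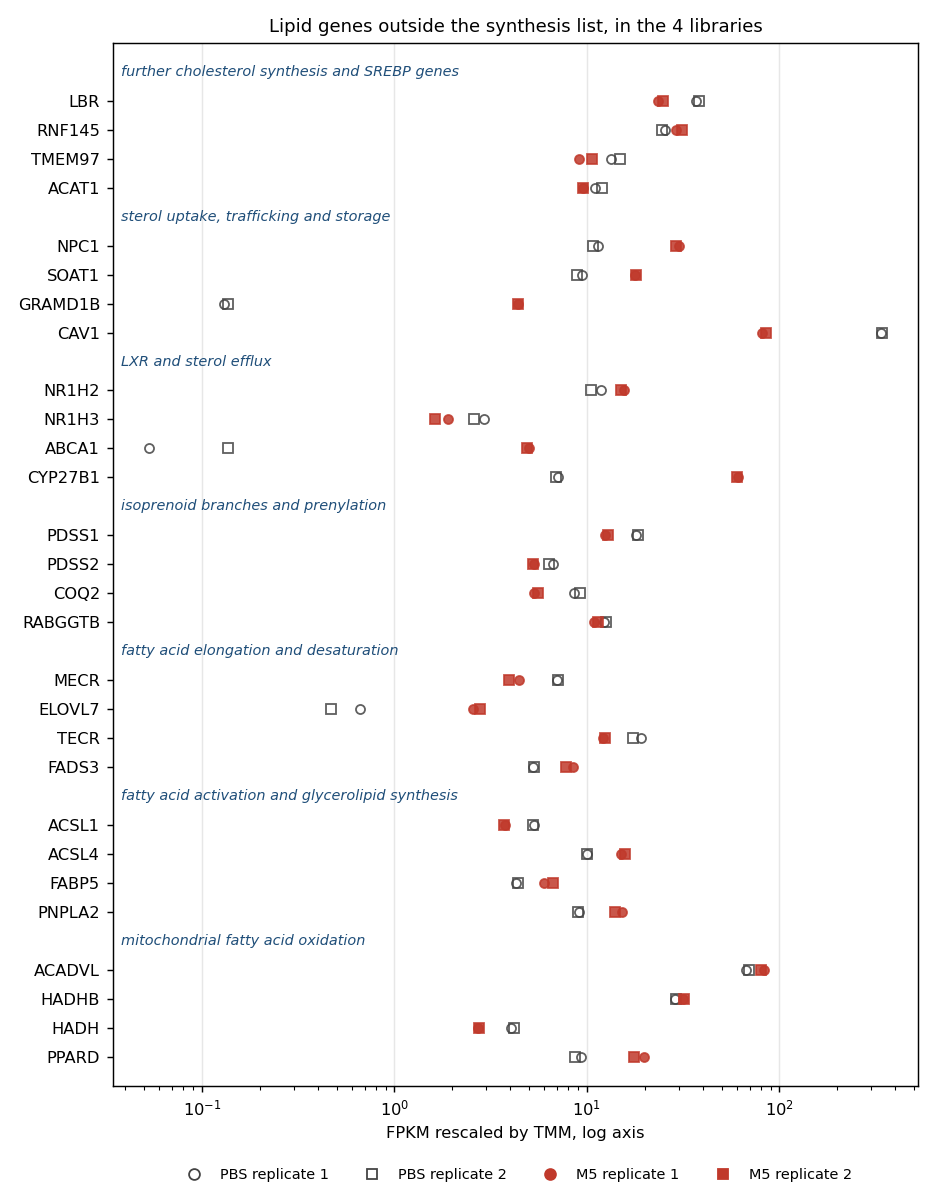
Level of 28 named lipid genes outside the synthesis list in the 4 libraries, as FPKM rescaled by TMM on a log axis, open symbols for PBS and filled for M5. GRAMD1B and ABCA1 lie between 0.0533 and 0.137 in the PBS libraries and between 4.37 and 4.98 in M5, and CAV1 moves from 335 and 340 in PBS to 80.7 and 85.1 in M5.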

How the data were processed

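The study measured polyadenylated RNA of HaCaT cells in 2 PBS and 2 M5 libraries. Per the file headers, the authors gave each of 27356 genes a count and an FPKM. HISAT2, HTSeq 0.13.5 and GRCh38 are named, without roles, per the submitters' processing notes. Annotation release and strand setting: not given in the sources used here. In the deposited tables, count over FPKM gives whole gene lengths when each file's own total is used.

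Counts were tested with edgeR 4.0.16 in R 4.3.3 (TMM scaling, glmQLFit and glmQLFTest, two-sided) on the 10809 genes whose FPKM averaged 1 or more, with Benjamini-Hochberg adjustment over all of them. The standard error is the log2 fold change over the root of F, and 95% intervals use the fit's degrees of freedom. The fit was tested on simulated data. The synthesis genes and gene lists were chosen with earlier results of these data known. All synthesis genes with a row are named, and of each other lipid list up to 4 called genes with the largest change. Alternatives were library totals, TPM and median-of-ratios scaling, DESeq2 1.42.0, limma 3.58.1 on log2(FPKM + 1) and log2(FPKM + 0.1), no filter, a filter at 5 FPKM, a robust fit, a replicate block, each library left out, and an adjusted p of 0.01. Positions and exon overlaps come from GENCODE 29 on GRCh38, which is not the authors' annotation release, and promoters from RefSeq on GRCh38.p14. Some genes of the lists are not reported here by name.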

Additional observations from a re-analysis of the deposited data

How the results depend on the processing

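Of the 15 calls among the synthesis genes, 11 were lost in no alternative that tested the gene, and HMGCS1, MVD, FDPS and STARD4 were lost in at least 1. The 6 called higher became 3 with library totals, with TPM scaling and with the filter raised to 5 FPKM, and 2 with limma on log2(FPKM + 1) or log2(FPKM + 0.1). The 9 called lower became 14 with library totals and with TPM scaling. Fits with 1 library left out have only 1 library in a group, and how many genes they called is not given here. The median log2 fold change of -0.05 was -0.20 with library totals, -0.23 with TPM scaling, -0.18 and -0.20 with limma at pseudocounts of 1 and 0.1, and -0.21 to -0.0119 with 1 library left out, the lowest without M5 replicate 1. HMGCS1 turned to -0.0148 with TPM scaling. HADHB turned to -0.00795 with library totals, -0.0382 with TPM scaling, and -0.00778 and -0.00802 with limma at the same 2 pseudocounts. The 22 other lipid genes called lower became 34 with TPM scaling. Over all tested genes, 3114 higher and 2929 lower became 4463 lower with library totals, 2027 higher and 4739 lower with TPM scaling, and 2010 and 2005 higher with limma at the 2 pseudocounts. The scalings by library totals and by TPM shift the median of all tested genes. The limma fits were run on deposited FPKM, which rest on each file's own total and not on TMM factors. STARD4, at a mean deposited FPKM of 3.83, was not tested with the filter at 5 FPKM. The cause of the other changes was not tested.

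Replicate numbers in the titles were not taken as pairs. Deviations of replicate 1 from the group means correlated at -0.02 between PBS and M5. With 2 libraries a group this cannot show whether the samples were paired. With the replicate number as a block, 6 synthesis genes were called higher and 10 lower, with a median of -0.06, the added gene being PMVK. In the same fit 25 other lipid genes were higher and 23 lower, and 3134 and 2959 of all tested genes. With 2 libraries a group, low genes such as LSS and GGPS1 have intervals too wide to show a small change.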

Other observations

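A list of 25 further fatty acid genes holds elongation and desaturation enzymes, and also genes of precursor supply (ACSS2, ME1, SLC25A1), of mitochondrial synthesis (MCAT, OXSM, MECR) and of regulation (MID1IP1). Of 18 tested, 4 rose and 7 fell, against 28.8% and 27.1% of all tested genes, with a median log2 fold change of -0.05. MCAT and MECR are among the 7 that fell. TECR, the reductase that closes each elongation cycle in the endoplasmic reticulum, had 19.0 and 17.3 scaled FPKM in PBS and 12.2 and 12.4 in M5, 1.47-fold lower (edgeR adjusted p = 6.29e-07). MECR, the matching reductase of mitochondrial fatty acid synthesis, fell from 7 and 7.09 to 4.43 and 3.92 (1.69-fold lower, edgeR adjusted p = 9.43e-06). ELOVL7, an elongase of long saturated fatty acids, was low in PBS, at 0.664 and 0.469, and rose to 2.56 and 2.78 in M5 (4.71-fold, edgeR adjusted p = 5.14e-08), passing the filter through its M5 level. FADS3, a fatty acid desaturase relative, rose 1.54-fold (edgeR adjusted p = 4.87e-06).

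A list of fatty acid activation, transport, glycerolipid synthesis and lipolysis had 9 tested genes, with a median of 0.09. Of these 3 rose and 2 fell, against 28.8% and 27.1% of all tested genes. Of the 3 that rose, ACSL4 activates fatty acids, while PNPLA2 and FABP5 do not. The acyl-CoA synthetases moved apart, ACSL4 higher by 0.62 and ACSL1 1.42-fold lower (edgeR adjusted p = 4.83e-08 and 0.000161). PNPLA2, the triglyceride lipase, rose by 0.69 and the epidermal fatty acid carrier FABP5 by 0.55 (edgeR adjusted p = 8.86e-07 and 0.00795), the latter not called with TPM scaling (0.37, edgeR adjusted p = 0.0571). Of 11 tested genes of mitochondrial fatty acid oxidation and its receptors 3 rose and 1 fell, against 28.8% and 27.1% of all tested genes. The list's median was -0.00. PPARD, a lipid-sensing nuclear receptor and no oxidation enzyme, had 9.28 and 8.67 scaled FPKM in PBS and 19.7 and 17.6 in M5 (2.08-fold higher, edgeR adjusted p = 8.17e-10), and HADH, a dehydrogenase of short chains, was 1.50-fold lower. ACADVL was higher by 0.25 and HADHB by 0.14 (edgeR adjusted p = 0.000708 and 0.0419), calls lost with library totals (0.10 and -0.01).

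In the isoprenoid branches that leave the pathway at farnesyl diphosphate, 4 of 12 tested genes fell and 0 rose, against 27.1% and 28.8% of all tested genes. Their median was -0.03. At an unadjusted p under 0.05 in the same edgeR fit 1 gene was higher, and DESeq2 called 0 higher. The shares of all tested genes given above do not apply to these 2 criteria. COQ2 and PDSS1, which act in the synthesis of coenzyme Q, were 1.64-fold and 1.43-fold lower (edgeR adjusted p = 4.25e-05 and 0.00014). PDSS2 fell by 0.30 and RABGGTB, a prenyltransferase subunit, by 0.15. Each of the latter pair lost its call with DESeq2 and when either PBS replicate was left out.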
